A study of Mus musculus with 28 samples.

Results

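The miR-30 family was followed in small RNA libraries from the blood of ageing mice. Its 7 members are the rows named mmu-miR-30a-5p, mmu-miR-30b-5p, mmu-miR-30c-5p, mmu-miR-30d-5p, mmu-miR-30e-5p, mmu-miR-30a-3p and mmu-miR-30e-3p (mmu, for mouse, is left out below), which were chosen by name and not by their values, out of 1966 miRNAs and 80668 RNAs of all classes in the tables. The blood came from 14 female wild-type C57BL/6N mice aged 2 months (n = 3), 6 months (n = 4), 8 months (n = 3), 12 months (n = 2) and 18 months (n = 2). All were anesthetized with ketamine and xylazine, bled from the vena cava and sampled once, with no pooling of animals. Plasma freed of platelets and debris was spun in an ultracentrifuge, which gave an EV-enriched pellet (called EV here) and an EV-depleted supernatant with the freely circulating RNA (called plasma here), so that each mouse gave 2 libraries. The pellet is enriched for extracellular vesicles (EVs) and not a pure vesicle preparation, the 12- and 18-month mice were also heavier than the younger mice, which cannot be told apart from age, and a level in blood does not tell how many cells of a tissue released an RNA from how much each released.

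MiRNAs are short RNAs of about the length printed here that guide Argonaute proteins to messenger RNAs, mostly through pairing of the seed, which covers bases 2 to 8. A hairpin precursor is cut into a 5p and a 3p arm, of which usually the better loaded arm persists and the other is degraded. The 5p arms of the miR-30 family share a seed and thus a large part of their predicted targets, and the family is known for its high levels in kidney, heart and other epithelial and muscle tissue and for repressing regulators of the epithelial to mesenchymal transition and of autophagy.

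The mature sequences show why the members are treated as a family and where they differ. Sequences were matched by name in the RefSeq table of build GRCm38.p6 for 5 of 7 members, with the seed in capitals. miR-30b-5p and miR-30d-5p are named here without a sequence.

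miR-30a-5p: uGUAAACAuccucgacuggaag
miR-30c-5p: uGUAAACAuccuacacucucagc
miR-30e-5p: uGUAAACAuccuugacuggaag
miR-30a-3p: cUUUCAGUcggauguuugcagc
miR-30e-3p: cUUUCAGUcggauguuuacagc

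The 3 printed 5p arms share the seed GUAAACA and all of their first 12 bases, so they differ only downstream of the seed. Counted from the 5′ end, miR-30e-5p differs from miR-30a-5p by the single substitution C13U, and miR-30e-3p from miR-30a-3p by G18A. miR-30c-5p differs from miR-30a-5p at 5 positions (C13A, G14C, G18C, G19U, A20C) and is 23 bases long instead of 22. The 3p arms carry another seed, UUUCAGU. The study allowed 1 mismatch per read in its tissue libraries and how reads were assigned in the EV and plasma libraries is not stated in the sources used here, so reads of miR-30a and miR-30e may be split between the 2 rows of an arm, and each of these 4 levels is uncertain to that extent. The base patterns CNGGNC and CUGGUG, of which the study names the former as an EV sorting motif, were searched as letters with N for any base on the mature strand. Neither was in the 5 sequences, and they were in 7.92% and 1.07% of the 1679 mature sequences of the table.

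The genes lie in 3 pairs. Mir30a (chr1:23272269-23272339, plus strand) and Mir30c-2 (chr1:23291701-23291784, plus strand) are 19361 bases apart. Mir30c-1 (chr4:120769534-120769622, minus strand) and Mir30e (chr4:120772606-120772697, minus strand) are 2983 bases apart, and both lie within the bounds of Nfyc, which encodes a subunit of the transcription factor NF-Y. Mir30b and Mir30d on chromosome 15 are 3697 bases apart. Mature miR-30c-5p arises from both Mir30c-1 and Mir30c-2, and its estimated counts were not whole numbers in 4 plasma and 5 EV libraries. The hairpins of the 2 genes with 2 recovered arms are shown with both mature arms in capitals.

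Mir30a: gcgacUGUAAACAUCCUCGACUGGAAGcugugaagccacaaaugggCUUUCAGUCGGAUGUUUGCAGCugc
Mir30e: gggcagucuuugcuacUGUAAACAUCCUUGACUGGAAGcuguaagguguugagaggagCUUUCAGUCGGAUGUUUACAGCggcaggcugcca

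Plasma libraries held 928651 to 23905651 counts and EV libraries 4764338 to 52753818, of which miRNAs took 0.222% to 0.652%. The family therefore rests on 43 to 741 counts per plasma library and 127.5 to 2318 per EV library. The plasma library of 6 months replicate 1 was the shallowest, the only library under 2000000 counts, with 43 family counts. Blood cell markers were present throughout, with 7 red cell miRNAs summing to 735 to 3266 RPM (reads scaled to a common library size) in plasma and 548 to 4530 in EVs and 5 platelet and myeloid miRNAs to 183 to 817 and 230 to 1286. Liver markers (4 miRNAs) reached 180 RPM in plasma and 250.5 in EVs, 6 kidney and epithelial miRNAs 17.5 and 37.2, and 5 muscle miRNAs 8.01 and 8.42. No listed marker was without reads over the 14 libraries of a fraction. However, only 6 of 7 red cell, 5 of 6 kidney and epithelial and 3 of 5 muscle miRNAs reached 1 RPM in any library of a fraction.

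miR-30c-5p was the most abundant member and miR-30b-5p the next in both fractions, followed by 5 members of similar low level. The mean RPM of miR-30c-5p was 26.2 ± 10.1 in plasma libraries and 30.3 ± 20.9 in EV libraries (SD, n = 14 each), which placed it 42nd of 1501 miRNAs with reads in plasma and 46th of 1557 in EVs. miR-30b-5p averaged 11.3 ± 4.56 RPM in plasma libraries, against 12.3 ± 8.60 in EV libraries. It stood below miR-30c-5p in 14 of 14 libraries of each fraction. It was above all 5 lower members in 13 of 14 plasma and 14 of 14 EV libraries, the exception being the shallow plasma library, where miR-30e-5p had 8 counts and miR-30b-5p had 6. RPM values of mature miRNAs can be compared between members without a length correction because the molecules are 22 or 23 bases long, although how well each sequence is captured in a library may differ.

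The other members were not separated from their neighbours in that order. In plasma miR-30a-3p averaged 4.62 ± 1.99 RPM, miR-30e-5p 4.58 ± 3.24, miR-30d-5p 4.20 ± 2.97, miR-30a-5p 3.26 ± 1.87 and miR-30e-3p 2.81 ± 1.74 (SD, n = 14). Each of these exceeded the next in only 6 to 9 of 14 plasma libraries. In EVs the order was miR-30d-5p at 7.19 ± 5.66 RPM, miR-30e-5p at 7.10 ± 4.76, miR-30a-3p at 5.38 ± 3.44, miR-30a-5p at 4.84 ± 4.14 and miR-30e-3p at 3.11 ± 1.34 (SD, n = 14). Here miR-30e-5p was above miR-30a-3p in 12 of 14 libraries, while the other neighbours exceeded the next in 6 to 10. miR-30d-5p had no read in the shallow plasma library, where 3 counts, the limit taken for a count of 0, equal 5.11 RPM. It was therefore not detectable at that depth rather than absent.

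Together the 7 members held 0.905% ± 0.104 of the miRNA counts in plasma and 0.873% ± 0.223 in EVs (SD, n = 14). In EVs the share ran from 0.630% to 1.30%, the highest being 6 months replicate 4 and the next the 12-month mice at 1.24% and 1.14%. In plasma it ran only from 0.759% to 1.07%.

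**Figure D1:**
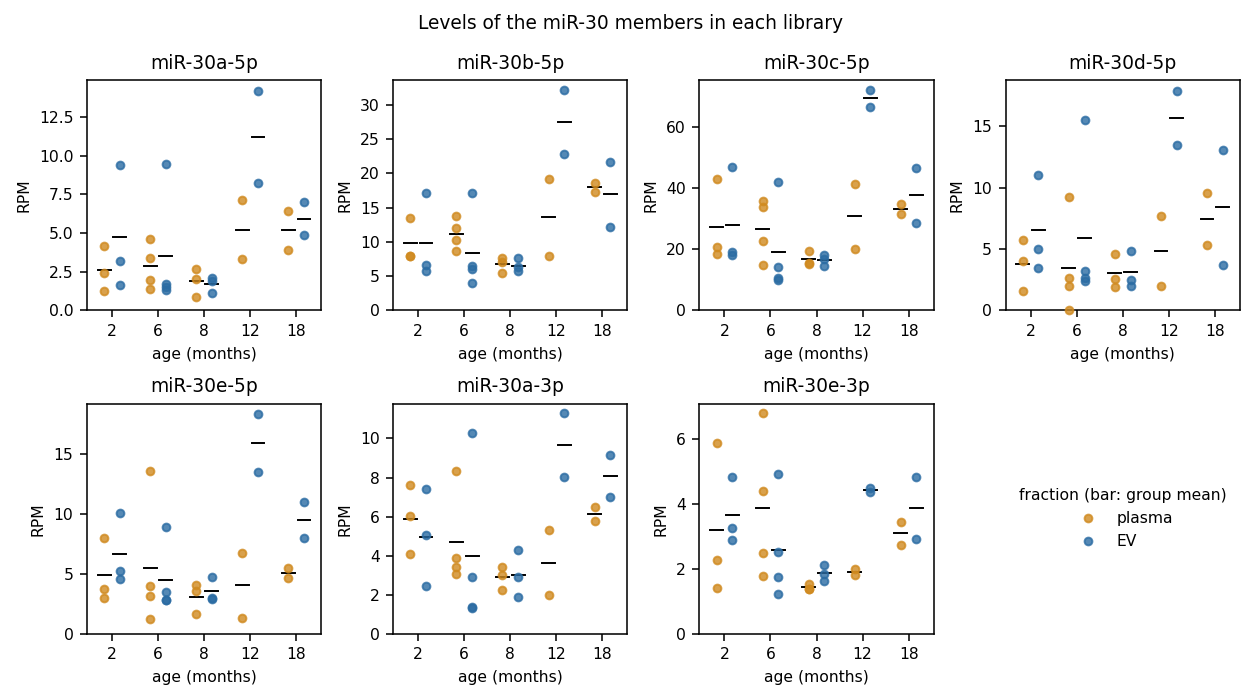
RPM (y axis, from 0, a scale per member) of the 7 members by age in months (x axis), with plasma libraries in orange, EV libraries in blue and the group mean as a bar. The 12-month EV libraries are the highest of their fraction for miR-30b-5p and miR-30c-5p, and EV 6 months replicate 4 stands above the other 3 libraries of its group in all 7 members.

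Both arms of miR-30a and miR-30e circulated, whereas the 3p arms of the other members were almost without reads. Over the 14 plasma libraries miR-30a-5p had 269 counts and miR-30a-3p 409, so that the 3p arm held 60.3% (exact 95% interval 56.5% to 64.0%) of the counts of both arms. In EVs the counts were 630 and 651, or 50.8% for the 3p arm (48.0% to 53.6%). miR-30e-3p held 37.6% (33.6% to 41.8%) of the counts of its pair in plasma, from 213 counts beside 353 of the 5p arm. In EVs it held 29.5% (27.0% to 32.1%), from 376 beside 899. These intervals cover counting error only and sum over mice.

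The 3p arms of miR-30b, miR-30c and miR-30d held between 0.365% and 0.861% of the counts of their pair. miR-30b-3p had 4 counts in plasma and 7 in EVs beside 964 and 1561 of miR-30b-5p. The 2 arms miR-30c-1-3p and miR-30c-2-3p together had 8 counts in plasma and 15 in EVs beside 2184 and 3795.5 of miR-30c-5p. miR-30d-3p had 3 and 8 counts beside 385 and 921. In the rows of these 4 arms and of miR-30f, whose gene overlaps Mir30e, no library had more than 3 counts. miR-384-5p, the other miRNA of the tables with the seed GUAAACA, had 0 counts in all 28 libraries.

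**Figure D2:**
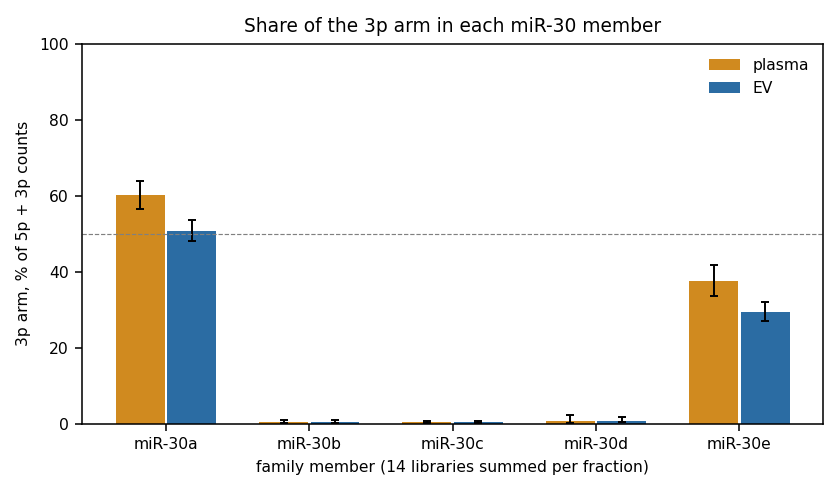
Percent of the counts of both arms that fell on the 3p arm (y axis, 0 to 100) for the 5 hairpin names (x axis), summed over 14 libraries per fraction, plasma in orange and EV in blue, with exact 95% intervals of counting error. miR-30a and miR-30e stand at 29.5% to 60.3%, and the other members are below 1% (the dashed line marks 50%).

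The arm ratio within a library, log2 of the 5p over the 3p count with 0.5 added to each, did not differ between the fractions beyond the spread between mice. For miR-30a it was -0.60 ± 0.74 in plasma and -0.32 ± 0.66 in EVs (SD, n = 14), below 0, and thus in favour of the 3p arm, in 10 of 14 libraries of each fraction. For miR-30e it was 0.61 ± 0.78 in plasma and 1.03 ± 0.49 in EVs, and it was above 0 in 14 of 14 EV libraries and below 0 in 3 plasma libraries. EV minus plasma within mice was 0.28 for miR-30a (95% interval -0.32 to 0.87, higher in EVs in 10 of 14 mice). It was 0.42 for miR-30e (-0.11 to 0.96, also in 10 of 14 mice). Exact two-sided tests over all 16384 sign changes gave p = 0.322 and p = 0.116, with adjusted p = 0.322 and adjusted p = 0.162 over 7 such quantities (2 arm ratios and the 5 shares below), so differences of the size of these intervals were not resolved.

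The first comparison asked which members differ between vesicles and free plasma. Fold changes come from edgeR's quasi-likelihood test on the counts with age as a covariate, scaled by TMM (a factor per library that sets most miRNAs equal), and p-values were adjusted by Benjamini-Hochberg over all miRNAs tested. Of the 7 members 0 passed the threshold of 0.05, while 61 of 333 miRNAs tested did (18.3%), 27 higher and 34 lower in EVs. At an unadjusted p under 0.05, which all 61 miRNAs called also met, there was 1 member, miR-30e-5p. The median log2 fold change, EV over plasma, was 0.05 over the members, with 4 of 7 above 0, and 0.02 over all miRNAs tested, of which 53.2% were above 0.

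miR-30e-5p had the smallest p. It ran from 1.24 RPM over a median of 3.84 to 13.6 in plasma and from 2.79 over 5.02 to 18.3 in EVs. The ranges overlap, and EV was the higher library in 11 of 14 mice. Its log2 fold change was 0.41 (standard error 0.18, edgeR adjusted p = 0.114), and over the alternative settings the adjusted p lay between 0.0174 and 0.252. Its highest plasma value is that of the shallow library, from 8 counts. Without that mouse the log2 fold change was 0.50 and passed (edgeR adjusted p = 0.0461), as it did with DESeq2 (0.48, adjusted p = 0.0174). With the mouse as a replicate block it was 0.44 (standard error 0.17, edgeR adjusted p = 0.0601).

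The remaining members had log2 fold changes between -0.25 and 0.35. miR-30b-5p, the second in level, lay lowest at -0.25 (standard error 0.14, edgeR adjusted p = 0.240), with 5.47 to 19.2 RPM in plasma and 4.06 to 32.2 in EVs. miR-30d-5p lay at 0.35 (standard error 0.25, adjusted p = 0.365 by edgeR), miR-30a-5p at 0.22 and miR-30e-3p at 0.05. miR-30c-5p was at -0.12 with a 95% interval from -0.39 to 0.15, and miR-30a-3p at -0.16 with an interval from -0.55 to 0.23. All of these ranges overlap between the fractions. The signs depend on the scale: under RPM scaling the median of all miRNAs moved to 0.28 and 7 of 7 members were above 0 with a median of 0.24, and of the 43 miRNAs called there 28 were higher and 15 lower in EVs. Relative to that shift the members lay at or near the bulk of miRNAs on both scales.

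**Figure D3:**
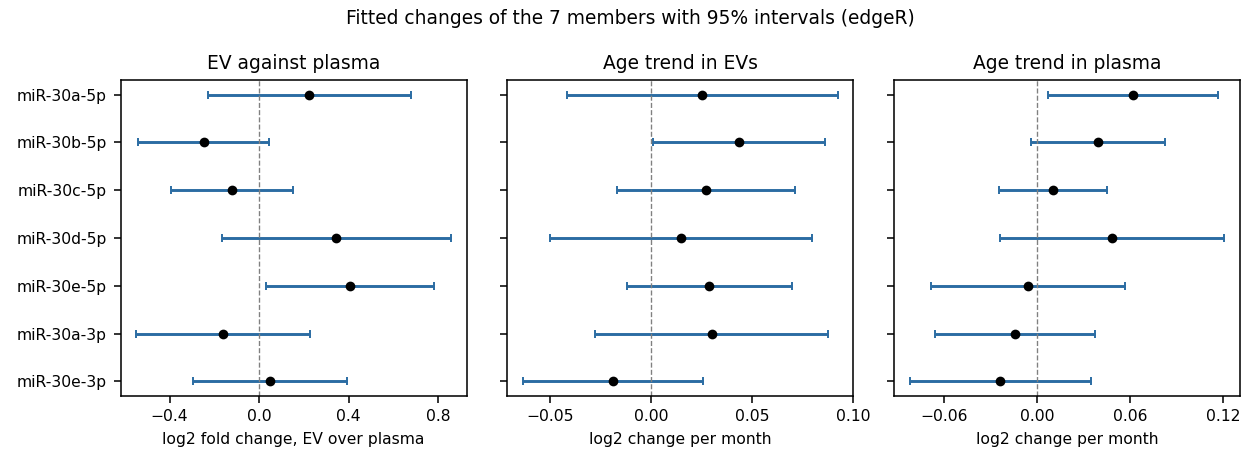
Fitted log2 changes (x axes) of the 7 members (y axis) with 95% intervals from edgeR, for EV over plasma and per month of age in EVs and in plasma. Intervals cross 0 (dashed) except for miR-30e-5p between fractions, miR-30b-5p with age in EVs and miR-30a-5p with age in plasma, whose adjusted p-values were 0.114, 0.404 and 0.273.

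Within the family, however, the composition differed between the fractions. The share of a member was its percent of the counts of the 5 5p arms in a library, a measure that does not depend on how libraries are scaled. miR-30c-5p ran from 47.6% over a median of 53.3% to 59.2% in plasma and from 43.6% over 49.7% to 56.1% in EVs. The ranges overlap, and 11 of 14 mice had the lower share in EVs. On average its share was 53.2% ± 3.71 in plasma and 49.6% ± 3.34 in EVs (SD, n = 14), and EV minus plasma was -3.64 percentage points (95% interval -5.64 to -1.63). The exact two-sided test over sign changes within mice gave p = 0.00269 (adjusted p = 0.0188 over the 7 quantities). This call was lost when the 2 mice of uncertain pairing were left out (-3.78 points, exact test, adjusted p = 0.0615) and when fraction labels were permuted over all 28 libraries without the pairing (permutation test, adjusted p = 0.0748).

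The shares of the other 5p arms did not pass the adjusted threshold. miR-30b-5p held 23.1% ± 4.45 in plasma and 20.2% ± 2.26 in EVs, a difference of -2.90 points (95% interval -5.48 to -0.33, higher in EVs in 2 of 14 mice, exact p = 0.0325, adjusted p = 0.0954). miR-30d-5p held 8.33% ± 4.15 and 11.2% ± 2.77, a difference of 2.83 points (higher in EVs in 9 of 14 mice, exact p = 0.0409, adjusted p = 0.0954). miR-30e-5p held 9.05% ± 4.59 and 12.0% ± 2.36, a difference of 2.92 points (higher in EVs in 12 of 14 mice, exact p = 0.0557, adjusted p = 0.0974). miR-30a-5p held 6.33% ± 2.12 and 7.12% ± 1.95, a difference of 0.79 points (higher in EVs in 10 of 14 mice, exact p = 0.215, adjusted p = 0.250). Thus the 2 most abundant members were on the plasma side and the 3 least abundant on the EV side, but the 5 shares add up to a fixed total and are not independent, and only that of miR-30c-5p passed. Without the mouse of the shallow plasma library, in which miR-30e-5p held 21.6% and miR-30d-5p 0%, miR-30b-5p at -3.62 points (exact test, adjusted p = 0.0142) and miR-30e-5p at 4.05 points (exact test, adjusted p = 0.00684) passed as well.

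**Figure D4:**
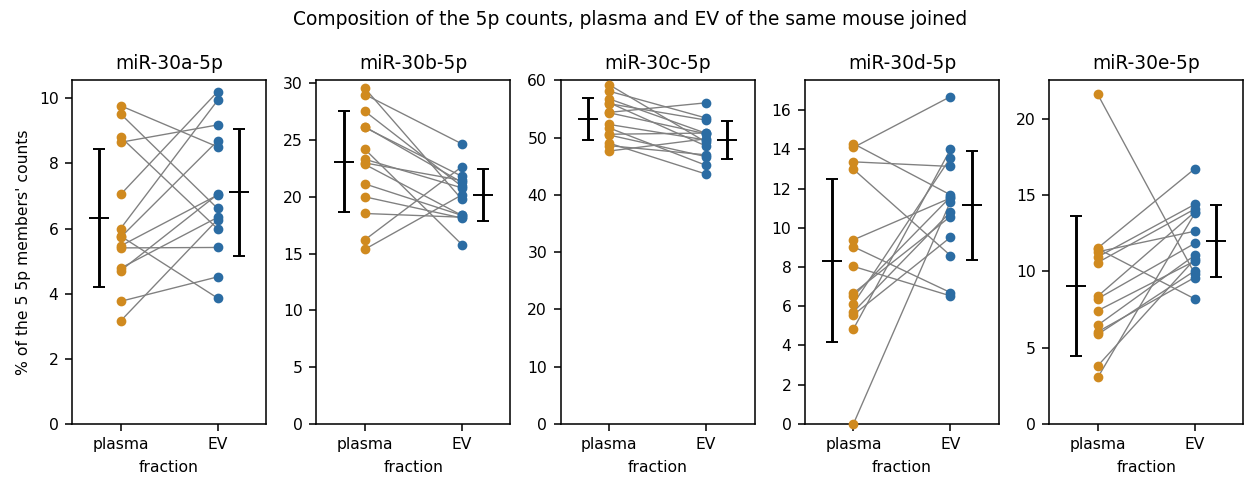
Percent of the counts of the 5 5p arms held by each member (y axis, from 0, a scale per panel) in plasma and EV (x axis), with a line joining the libraries of a mouse, 2 mice at 2 months being joined by replicate number only, and mean ± SD beside them. miR-30c-5p falls from 53.2% to 49.6% on average and is lower in EVs in 11 of 14 mice.

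The second comparison asked whether the members change with age in a fraction. In EVs 0 of 7 members passed in edgeR's fit of age in months, and 1 of 307 miRNAs tested did (0.326%). In plasma 0 of 7 members and 0 of 304 miRNAs passed (0%), although 47 miRNAs had an unadjusted p under 0.05 and DESeq2 called 2. At an unadjusted p under 0.05 there was 1 member in each fraction, miR-30b-5p in EVs and miR-30a-5p in plasma. The count over all miRNAs at this limit is given here for plasma only, so 1 of 7 in EVs cannot be set against it. The median log2 change per month was 0.027 over the members in EVs, with 6 of 7 above 0, and 0.010 in plasma, with 4 of 7 above 0, beside medians of 0.0014 and -0.0019 over all miRNAs tested.

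In EVs miR-30b-5p had the largest fitted slope of the members. Its RPM values were 6.67, 5.68 and 17.2 at 2 months, 6.42, 4.06, 6.08 and 17.1 at 6 months, 7.61, 5.75 and 6.30 at 8 months, 22.9 and 32.2 at 12 months and 12.2 and 21.7 at 18 months. In RPM the 12-month mice were above all others, and the 18-month mice overlapped with 2 and 6 months through 1 high library in each of those groups. On the log2 TMM scale 12 months replicate 1, at 10.875, was below 2 months replicate 3 (10.880) and 18 months replicate 2 (11.107). The log2 change was 0.044 per month (standard error 0.020, edgeR adjusted p = 0.404). Across the 14 mice Spearman's rho of its RPM with age was 0.477 (permutation p = 0.0853, adjusted p = 0.530) and Pearson's r 0.497 (permutation p = 0.067, adjusted p = 0.315). Without the 18-month mice r was 0.548 and rho 0.358.

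miR-30c-5p followed the same order of groups in EVs. It lay at 18.0, 19.1 and 46.9 RPM at 2 months, at 14.4, 9.95, 10.7 and 42.0 at 6 months, at 18.0, 14.4 and 16.9 at 8 months, at 66.6 and 72.3 at 12 months and at 28.5 and 46.8 at 18 months. Again the 12-month mice were the highest and the 18-month mice overlapped with the 2- and 6-month groups. The log2 change per month was 0.027 (standard error 0.021, edgeR adjusted p = 0.564), and for miR-30e-5p 0.029, miR-30a-3p 0.030, miR-30a-5p 0.026 and miR-30d-5p 0.015. miR-30e-3p had the sole negative slope, at -0.019 per month (standard error 0.021, edgeR adjusted p = 0.677). The EV libraries of 12 months were also the richest in platelet and myeloid miRNAs, at 1221 and 1286 RPM, against 230 to 379 RPM at 6 and 8 months except for 6 months replicate 4, which had 1181. Kidney and epithelial miRNAs stood at 37.2 and 20.5 RPM at 12 months against 6.30 to 10.0 at 6 and 8 months without that library, and muscle miRNAs at 8.42 and 4.55 against 0.612 to 2.82. Red cell miRNAs were at 2231 and 4530 RPM against 548 to 957, and liver miRNAs at 144 and 137 against 20.1 to 61.9. In the EV libraries of 2 and 18 months, red cell miRNAs were at 833 to 3741 RPM and liver miRNAs at 41.7 to 183. Kidney and epithelial miRNAs were there at 8.46 to 23.1 RPM and muscle miRNAs at 0.996 to 7.62. Only the platelet and myeloid list had both 12-month libraries above all other EV libraries. The part of these lists in the levels of the members was not tested.

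In plasma miR-30a-5p had the largest fitted slope. Its RPM values were 4.16, 1.24 and 2.39 at 2 months, 3.41, 1.95, 1.41 and 4.61 at 6 months, 2.71, 2.05 and 0.883 at 8 months, 3.32 and 7.12 at 12 months and 6.45 and 3.91 at 18 months, from 2 to 59 counts per library, the value of 3.41 RPM being 2 counts in the shallow library. The groups overlap, with the highest values at 12 and 18 months. The log2 change was 0.062 per month (standard error 0.026, edgeR adjusted p = 0.273). Spearman's rho of RPM with age was 0.382 (permutation p = 0.177, adjusted p = 0.803) and Pearson's r 0.545 (permutation p = 0.0430, adjusted p = 0.436), and without the 18-month mice r was 0.381 and rho 0.177. On the scale of miRNA counts rho was 0.668 (permutation p = 0.0111, adjusted p = 0.376).

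The order of the other members in plasma differed from that in EVs. miR-30d-5p was at 0.049 per month and miR-30b-5p at 0.039 (standard error 0.021, edgeR adjusted p = 0.384), miR-30c-5p at 0.010 with a 95% interval of -0.024 to 0.045, miR-30e-5p at -0.0060, miR-30a-3p at -0.014 and miR-30e-3p at -0.023. miR-30b-5p had 17.3 and 18.7 RPM at 18 months, against 5.47 to 13.8 RPM at 2 to 8 months and 7.97 and 19.2 at 12 months. In RPM only 1 of the younger mice thus reached the 18-month level. On the log2 TMM scale, however, 6 months replicate 2 (11.262) and 8 months replicate 3 (11.222) were above 18 months replicate 1 (11.220). The r of 0.580 of its RPM with age (permutation p = 0.0296, adjusted p = 0.428) fell to 0.171 without the 18-month mice, and thus rests on them.

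A rho past 0.5 in either direction, the limit used for correlation with age, was reached by 0 of 7 members in EVs against 34 of 307 miRNAs (11.1%), and by 0 of 7 in plasma against 26 of 304 (8.55%). The median rho over the members was 0.315 in EVs and 0.094 in plasma, beside 0.270 and 0.047 over all miRNAs tested. In EVs the RPM of most miRNAs thus leaned upward with age along with the members. Scaled by TMM, the median over all miRNAs was -0.0067 and that of the members 0.391, and miR-30b-5p passed the limit (rho 0.600, permutation p = 0.0254, adjusted p = 0.422). On that scale 24 of 307 miRNAs were over 0.5 and 11 under -0.5.

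The difference in the age trend between the fractions was tested as an interaction over all 28 libraries. Of the members 0 of 7 passed, as did 0 of 333 miRNAs tested (0%), with 11 at an unadjusted p under 0.05 by edgeR and 0 called by DESeq2. Fitted differences, EV minus plasma, lay between -0.048 and 0.033 log2 units per month, and the smallest adjusted p was 0.997.

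Comparisons of age classes, with 6 and 8 months and 12 and 18 months joined, gave no call among the members either. They share the 2-month mice as controls, so their values are given side by side. From 2 to 12-18 months 0 of 7 members passed in EVs, against 3 of 333 miRNAs (0.901%), with log2 fold changes from -0.51 (miR-30e-3p) to 0.52 (miR-30b-5p). In plasma 0 of 7 passed against 20 of 333 (6.01%), with fold changes on the log2 scale from -0.42 (miR-30e-3p) to 0.89 (miR-30a-5p, standard error 0.44, edgeR adjusted p = 0.270). The median over the members was 0.23 in EVs and 0.12 in plasma, beside -0.018 and 0.053 over all miRNAs tested. Leaving out a mouse moved the EV median to values from 0.12 (without 6 months replicate 2, and likewise without 2 months replicate 1) to 0.68 (without 2 months replicate 3). It moved that in plasma to values from -0.0031 (without 8 months replicate 2) to 0.20 (without 2 months replicate 1), and the 20 miRNAs called in plasma fell to 1 without 2 months replicate 1 or 2. Under RPM scaling the median of all miRNAs in EVs moved to 0.66 and that of the members to 0.89, and 81.4% of all miRNAs tested were above 0.

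From 2 to 6-8 months 0 of 7 members passed in EVs, against 3 of 333 miRNAs (0.901%), with 1 of 7 above 0 and a median of -0.15. This direction rests on 1 mouse, since without 2 months replicate 3 there were 6 of 7 above 0 with a median of 0.20. In plasma 0 of 7 passed against 1 of 333 (0.3%), with 3 of 7 above 0 and a median of -0.090, which turned to 5 of 7 and 0.082 without 2 months replicate 1. Under RPM scaling 0 of 7 were above 0 in either fraction, with medians of -0.63 in EVs and -0.33 in plasma, where all miRNAs tested had medians of -0.37 and -0.22 and 18 and 6 miRNAs were called. In both fractions the 8-month libraries were among the lowest in RPM, with a summed level of the family of 36.3 ± 2.80 RPM in EVs and 35.7 ± 3.39 in plasma (SD, n = 3). At 12 months this level was 153.9 ± 19.1 RPM in EVs and 64.1 ± 35.7 in plasma (SD, n = 2). As a share of the miRNA counts, however, the family was not low at 8 months, at 0.815% in EVs and 0.845% in plasma. These mean shares were 0.753% and 0.845% at 2 months and 1.19% and 0.845% at 12 months.

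Within age classes 0 of 7 members differed between EV and plasma at 2 months (3 of 333 miRNAs called, 0.901%), at 6-8 months (17 of 333, 5.11%) and at 12-18 months (16 of 333, 4.8%). With the mouse as a replicate block the counts over all miRNAs rose to 15, 48 and 42, and still held 0 members. At 12-18 months miR-30e-5p had the smallest p. The 4 EV libraries lay between 7.95 and 18.3 RPM and the 4 plasma libraries between 1.33 RPM, from 2 counts, and 6.75 RPM. The log2 fold change was 0.70 (standard error 0.33, edgeR adjusted p = 0.303).

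The arm ratios of miR-30a in plasma and of miR-30e in EVs were related to age at the raw p, in favour of the 5p arm in older mice, but not after adjustment. In plasma the log2 ratio of miR-30a was -0.86, -1.65 and -1.32 at 2 months, 0, -0.97, -1.08 and -0.84 at 6 months, -0.33, -0.11 and -1.71 at 8 months, 0.65 and 0.42 at 12 months and 0.16 and -0.73 at 18 months. The value of 0 is that of the shallow library, with 2 counts on each arm. The 3 libraries above 0 were all from 12- or 18-month mice. Spearman's rho was 0.645 (permutation p = 0.0152, adjusted p = 0.0606 over 4 relations) and Pearson's r 0.563 (permutation p = 0.0367, adjusted p = 0.102). Without the 18-month mice they were 0.612 and 0.731, and without the mouse of the shallow library rho was 0.700 and passed (permutation test, adjusted p = 0.0386). In EVs the ratio of miR-30a had a rho of 0.063 (permutation p = 0.830, adjusted p = 0.830) and an r of -0.0025.

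For miR-30e the EV libraries carried the relation. Its log2 ratio lay between 0.15 and 1.35 at 2 to 8 months and was 1.60 and 2.03 at 12 months and 1.42 and 1.18 at 18 months, so that 3 of 4 old libraries were above all 10 younger ones. The rho was 0.587 (permutation p = 0.0303, adjusted p = 0.0606) and r 0.532 (permutation p = 0.0510, adjusted p = 0.102), and without the 18-month mice they were 0.485 and 0.595. In plasma rho was 0.106 (permutation p = 0.721, adjusted p = 0.830). Whether the 2 fractions differ in these relations was not tested.

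**Figure D5:**
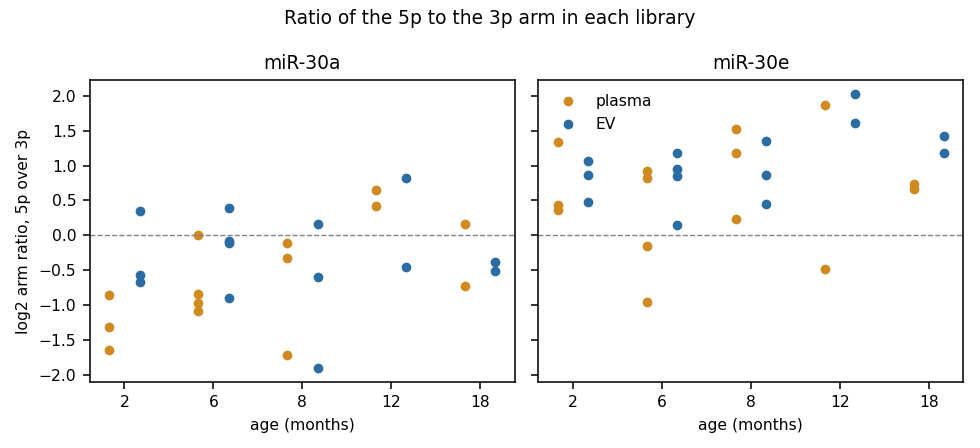
Log2 ratio of the 5p to the 3p count (y axis, 0.5 added to each count, 0 dashed) by age in months (x axis) for miR-30a and miR-30e, plasma in orange and EV in blue, a point per library. For miR-30a most points are below 0 and the 2 plasma libraries of 12 months lie at 0.65 and 0.42, and for miR-30e all EV points are above 0.

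From library to library the members varied together in most pairs in EVs, given as a description over 14 libraries per fraction that share their scaling. On the log2 TMM scale 20 of 21 pairs of members had a positive r in EVs, with a median of 0.537, and 12 of 21 in plasma, with a median of 0.082. Some of the positive pairs in EVs were near 0, as miR-30e-3p with miR-30a-5p (r = 0.017) and with miR-30b-5p (r = 0.017). The same count over pairs of all miRNAs is not given here. In EVs the closest pair was miR-30b-5p with miR-30c-5p (r = 0.856) and the lowest miR-30e-5p with miR-30e-3p (r = -0.225), the 2 arms of a hairpin. In plasma the closest pair was miR-30d-5p with miR-30a-3p (r = 0.611). Both had their lowest value in the shallow library, 5.33 from no read and 8.66 from 2 counts. The r without that library was not computed, so the place of this pair is uncertain. Counts in plasma were fewer, with medians per library of 14.5 to 130.5 for the members against 19.5 to 168 in EVs, which alone gives counting errors of 8.75% to 26.3% in plasma and of 7.71% to 22.6% in EVs.

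Of 271 other miRNAs tested in both fractions, 3 followed the mean of the 5 5p members most closely, by the average of r over the 2 fractions. miR-99a-5p had an r of 0.812 in EVs and 0.685 in plasma, miR-126a-3p, an endothelial and platelet miRNA, 0.841 and 0.529, and miR-10a-5p 0.746 and 0.607. The median of this average over the 271 miRNAs was 0.108. Their levels ran from 2.64 ± 1.77 RPM for miR-99a-5p in plasma to 75.6 ± 67.4 RPM for miR-126a-3p in EVs (SD, n = 14).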

How the data were processed

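Small RNA of EV-enriched pellets and EV-depleted plasma was sequenced in 28 libraries of 14 mice. The table deposited by the authors holds estimated counts that were not normalized. A second deposited table holds them as an RPM signal, each count divided by a number per library that is not its total count and that is not described in the sources used here. Aligner and counting rule of these libraries are likewise not stated in these sources. The submitters' processing notes name mm10 and R 4.0.4. All columns of both tables belonged to these samples.

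The members and lists were chosen with earlier results of these data known. The text names the 7 members, other rows named miR-30, miRNAs sharing a member's seed, and the 3 miRNAs whose level follows the 5p members most closely. Counts were rounded and tested with edgeR 4.0.16 (TMM factors computed over miRNAs, with the quasi-likelihood functions glmQLFit and glmQLFTest, in R 4.3.3 with limma 3.58.1) among miRNAs with at least 1 RPM in at least 2 of the 14 libraries of a fraction. Benjamini-Hochberg adjustment ran over all miRNAs tested, with a threshold of 0.05. DESeq2 1.42.0 was the other tool. Single values were tested exactly within mice, and correlations with age by two-sided permutation with 100000 resamples. P-values of the tests within mice and of the age trends in 1 fraction measure the spread between mice. Fits over all 28 libraries without the replicate block took the 2 libraries of a mouse as independent. Their p-values measure the spread between libraries. Other steps used scipy 1.17.1, numpy 2.4.6, pandas 2.3.3 and, for figures, matplotlib 3.10.9 in Python 3.11.15. The scripts were first tested on simulated data. The libraries pair because EV and plasma come from the same animal. For 2 plasma libraries of 2 months the label does not single out the mouse, and these were paired by number. As a check, deviations from the age means correlated within mice between 0.016 and 0.585 over 333 miRNAs, with 10 of 14 pairs over 0.1. In groups of 2 mice both pairs must give the same r (0.373 at 12 months and 0.348 at 18 months). Mismatched pairs were not compared, so the check does not decide the pairing. Alternatives were other scalings, filters, tools, codings of age, the replicate block, and leaving out libraries or mice.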

Additional observations from a re-analysis of the deposited data

Results flagged for a closer look

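In the groups of 4 libraries, the gap of the highest or lowest library to the others was set against the range of the group, in 42 groups, and 7 values lay past the critical value of 0.829. Chance gives about 1 in 20 groups. All 7 came from replicate 4 at 6 months, and values of 1 library are not independent of each other. In EVs it had 9.49 RPM of miR-30a-5p (the other 3 libraries 1.30 to 1.74), 42.0 RPM of miR-30c-5p (9.95 to 14.4), 15.5 RPM of miR-30d-5p (2.37 to 3.21) and 8.93 RPM of miR-30e-5p (2.79 to 3.47). On the log2 TMM CPM scale miR-30a-5p was still apart, at 10.0 against 8.51 to 8.66, and miR-30d-5p held 16.7% of the 5p counts against 10.6% to 11.6%. In plasma it had 8.34 RPM of miR-30a-3p against 3.07 to 3.89. The EV library of this mouse also held 250.5 RPM of liver markers and 1181 RPM of platelet and myeloid markers, against 31.9 to 61.9 and 230 to 324 in the other 3. It held 30.7 RPM of kidney and epithelial markers and 7.59 RPM of muscle markers, against 6.30 to 7.40 and 1.12 to 2.82, and 1263 RPM of red cell markers against 548 to 801. The part of these markers in these values was not tested.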

How the results depend on the processing

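With the mouse as a replicate block the count of members that differ between the fractions stayed at 0 over all ages, within each age class and in the interaction. Members called between EV and plasma rose from 0 to 1 (miR-30e-5p) with DESeq2 and without mice under 2000000 counts, and ranged from 0 to 1 when each mouse was left out. Of all miRNAs, 61 of 333 (18.3%) were called in the main fit and 47 to 60 over left-out mice. Members past a rho of 0.5 in either direction in EVs rose from 0 to 1 with TMM (miR-30b-5p) and to 2 scaled to miRNA counts. The 2 went opposite ways, miR-30b-5p at 0.582 and miR-30e-3p at -0.564, while 27 of 307 miRNAs were over 0.5 and 16 under -0.5. Over left-out mice the count in EVs ranged from 0 to 3. In plasma it rose from 0 to 2 by Pearson's r (miR-30a-5p and miR-30b-5p, both positive). It rose to 1 with TMM (miR-30a-5p, 0.614) and scaled to miRNA counts (miR-30a-5p, 0.668). Without the 18-month mice it was also 1, but this was miR-30a-3p at -0.586. Over left-out mice it was 0 to 1. The other counts of members stayed at 0 in all settings run.

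The share of miR-30c-5p, EV minus plasma, was -3.78 points without the uncertain pairs and -3.64 without the block, both past the threshold no longer, and -4.08 to -3.14 over left-out mice, all of which kept the call. Without mice under 2000000 counts the shares of miR-30b-5p (-3.62) and miR-30e-5p (4.05) and the relation of the miR-30a arm ratio with age in plasma (rho 0.700, permutation test, adjusted p = 0.0386) passed. Over left-out mice the shares ranged from -3.62 to -2.37 (miR-30b-5p, passing without 6 months replicate 1 or 8 months replicate 2), 2.17 to 3.38 (miR-30d-5p, passing without 8 months replicate 2) and 2.32 to 4.05 (miR-30e-5p, passing without 6 months replicate 1). The arm relation with age ranged from 0.593 to 0.774 for miR-30a in plasma, passing without 6 months replicate 1, 8 months replicate 1 or 8 months replicate 3. For miR-30e in EVs it ranged from 0.516 to 0.681, passing without 8 months replicate 1. That of miR-30a in EVs was -0.0025 by Pearson's r and ranged from -0.079 to 0.205, and that of miR-30e in plasma from -0.017 to 0.248.

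Over all comparisons the sign of a member turned in 83 of 1421 values under alternative settings, none past the threshold, of which 69 fell in the interaction, from 2 to 6-8 months, and between fractions within an age class. Over left-out mice the members' median ranged from -0.065 to 0.56 between fractions at 2 months, from -0.079 to 0.15 at 6-8 months and from -0.022 (without 12 months replicate 1, with 2 of 7 above 0) to 0.22 at 12-18 months. The 14 others were, under RPM scaling, miR-30b-5p (0.082), miR-30c-5p (0.17) and miR-30a-3p (0.15) between fractions, miR-30e-3p with age in EVs (0.023) and from 2 to 12-18 months in EVs (0.19), and miR-30e-5p with age in plasma (0.0053). With no filter on low values miR-30c-5p was at 0.026 between fractions, and with the replicate block without the uncertain pairs miR-30e-3p at -0.033. With a mouse left out, miR-30d-5p ranged from -0.015 to 0.039 per month in EVs and from -0.042 to 0.68 at 12-18 months in EVs, miR-30c-5p from -0.00059 to 0.020 and -0.0031 to 0.20 in plasma, and miR-30e-5p from -0.017 to 0.0070 and -0.29 to 0.0041 in plasma. The cause was not tested. With 2 mice each at 12 and 18 months and medians of 14.5 to 44.0 counts per library for the 5 lower members, smaller changes were not detectable at this depth.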
